A study of Mus musculus with 15 samples.

Results

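The loci described here are those of 9 cytokine genes of mature T cells, Il4, Il13, Il5, Il2, Il21, Ifng, Il22, Il17a and Il10, together with Rad50, a DNA repair gene that lies between Il13 and Il5. They are 10 of the 22351 protein-coding genes of the annotation and were chosen by name, with earlier results of these data known. All peaks that overlapped a gene body or the 100 kb on each side of it were taken. The windows of Il4, Il13, Rad50 and Il5 run into each other, as do those of Il2 and Il21, which left 6 stretches of 1453 kb in all. These stretches held 159 of the 185702 peaks of 5 peak lists.

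The cells were CD4+CD8+ double-positive thymocytes without CD69 at their surface, from the thymus of wild type C57BL/6 mice. Their age is not given in the labels. Chromatin immunoprecipitation with sequencing (ChIP-seq) gave 1 peak list for CTCF, 2 for Rad21 and 2 for acetylation of histone H3 at lysine 27 (H3K27ac). The series also covers cells that lack CTCF, or CTCF and Rad21, by Hi-C, which was not analysed here. A peak's height is its fold enrichment over local background as the authors' peak caller gave it. Percentiles of a fold are taken within its own list. Folds of different lists are also set side by side, and how far their scales match is not known. Separate animals are not stated for the replicates, and what differs between them may be technical.

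At this stage of T cell development the T cell receptor has not yet been tested by selection. These cytokines are induced in mature T cells after activation, each mainly in certain helper subsets. CTCF is a DNA-binding protein that recognises an asymmetric motif. Cohesin, a ring-shaped complex of which Rad21 is a subunit, extrudes loops of chromatin and is held up at CTCF sites. H3K27ac marks active promoters and enhancers. The labelled cell type was checked at the promoters of marker genes, taken as 2000 bp on either side of a transcription start site (TSS). All 12 markers of double-positive thymocytes, among them Cd4, Cd8a, Rag1 and Ptcra, had an H3K27ac region found in both replicates. So did 2 of 6 B cell markers, Cd79b among them, 0 of 6 myeloid markers, 0 of 6 markers of thymic stroma and 1 of 6 of natural killer and innate lymphoid cells (Prf1). Over all protein-coding genes the share was 41.5%. The part of other cells in the results was not tested. A weak mark in all cells and a strong mark in a few cells cannot be told apart in such data.

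Sequences of single sites are shown first, as 121 bases on the plus strand of mm9. They are centred on the summit of a CTCF peak, or in the last case of a Rad21 peak. The first 8 are the CTCF peaks of the stretches with the highest folds among those with a motif, in descending order, and the other two were chosen for a peak described below. Capitals mark the best match to the CTCF core consensus of 13 bases within 50 bp of the summit, on either strand and with at most 2 mismatches.
Upstream of Ifng, chr10:117807634-117807754, motif on the minus strand: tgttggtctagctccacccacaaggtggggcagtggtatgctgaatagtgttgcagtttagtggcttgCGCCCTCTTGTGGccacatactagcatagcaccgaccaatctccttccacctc
Downstream of Il5, chr11:53551225-53551345, plus strand: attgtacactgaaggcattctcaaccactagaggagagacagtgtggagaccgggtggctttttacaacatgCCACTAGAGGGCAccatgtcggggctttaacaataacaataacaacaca
Downstream of Il5, chr11:53549198-53549318, plus strand: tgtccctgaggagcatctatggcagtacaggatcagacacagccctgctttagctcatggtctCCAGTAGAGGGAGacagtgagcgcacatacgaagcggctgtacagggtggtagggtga
In Kif3a, downstream of Il4, chr11:53403896-53404016, plus strand: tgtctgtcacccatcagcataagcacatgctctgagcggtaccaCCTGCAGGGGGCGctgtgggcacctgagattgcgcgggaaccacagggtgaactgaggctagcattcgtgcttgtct
Upstream of Il21, chr3:37170276-37170396, minus strand: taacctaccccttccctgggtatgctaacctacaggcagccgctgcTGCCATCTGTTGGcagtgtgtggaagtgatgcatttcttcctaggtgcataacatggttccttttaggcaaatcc
Between Il4 and Il13, chr11:53441529-53441649, minus strand: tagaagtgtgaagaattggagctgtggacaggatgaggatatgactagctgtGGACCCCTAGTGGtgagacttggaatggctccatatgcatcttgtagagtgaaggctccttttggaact
Downstream of Il10, chr1:133018692-133018812, minus strand: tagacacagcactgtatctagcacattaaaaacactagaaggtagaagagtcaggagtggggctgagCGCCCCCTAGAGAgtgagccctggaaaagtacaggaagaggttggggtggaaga
Downstream of Il5, chr11:53550620-53550740, minus strand: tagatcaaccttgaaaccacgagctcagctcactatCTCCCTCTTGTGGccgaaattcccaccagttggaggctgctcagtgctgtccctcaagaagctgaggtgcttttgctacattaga
Upstream of Il22, chr10:117547263-117547383, minus strand: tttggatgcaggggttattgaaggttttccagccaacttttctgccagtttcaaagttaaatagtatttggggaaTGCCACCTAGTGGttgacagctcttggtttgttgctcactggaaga
Intron of Ifng, a Rad21 peak of replicate 2 with no CTCF peak, chr10:117879076-117879196, plus strand: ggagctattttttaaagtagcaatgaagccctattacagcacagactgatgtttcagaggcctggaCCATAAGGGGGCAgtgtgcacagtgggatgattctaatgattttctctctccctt

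At the cytokine genes themselves the lists were nearly empty. None of the 9 cytokine promoters had an H3K27ac region found in both replicates, and the 1 member that had one was Rad50, against 41.5% of all protein-coding genes. The Rad50 region had folds of 2.64 in replicate 1 and 8.56 in replicate 2 and covered a start site. Its −log10 q was 3.58 in replicate 1, and with at least 5 asked of every list the members' count was 0. No member had a promoter Rad21 region found in both replicates (31.5% of all genes have one) or a promoter CTCF peak (26.4%). With all 3 kinds of region counted, 9 of 10 members had none at the promoter, as had 49.1% of all genes. The members' promoter count of H3K27ac was also 1 in each replicate taken alone, where 44.7% and 43% of all genes had a peak.

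Single Rad21 lists held 3 low promoter peaks. In replicate 1, Il5 had a peak of fold 4.27 whose summit lay 0.876 kb upstream of the start (36.2% of all genes had a promoter peak in that list). In replicate 2, Rad50 had a peak of fold 4.10, 0.083 kb upstream of a start, and Ifng one of fold 6.73, 1.03 kb downstream of the start in an intron (43.6% of all genes). None of these 3 peaks was found in the other replicate, and their folds stood at the 10.2, 6.95 and 42.8 percentiles of their lists. The Ifng peak is the last of the sequences above and its summit window held a match to the CTCF consensus with 2 mismatches. No CTCF peak was called there.

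The gene bodies of 7 members held no CTCF peak and no shared region either. The share of all genes with none of these in the body was not counted, and gene length was not matched. No member body held a shared Rad21 region, meaning one with a peak in each replicate, which was also the case for 60% of all genes. CTCF peaks lay in the bodies of Il4 and Il13 only, while 59% of all genes had none. The Il4 peak, in an intron, had a fold of 3.84, and the Il13 peak, in an exon, a fold of 2.61. Both had a q value above 0.05 in the authors' list and neither had a Rad21 peak in either replicate. A shared H3K27ac region was found in the body of Rad50 alone, and 56.4% of all genes had none.

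The promoters were compared with RefSeq promoter sequences of 300 bases, 250 before and 50 after the start (GRCm38.p6), which matched 8 of the 10 members by symbol and gave 9 promoters, 2 of them for Il4. Rad50 and Il10 were not matched. The ratio of CpG dinucleotides observed to those expected from base composition ran from 0.0520 at one Il4 promoter to 0.443 at Ifng, with a median of 0.275. The median over 18180 promoters of protein-coding genes was 0.592. It was 0.786 for genes with promoter H3K27ac and 0.319 for those without. Among all promoters at or below the Ifng value 19.0% belonged to a gene with promoter H3K27ac, and above it 65.1%. This limit is the highest value of the members, so all 9 promoters fall at or below it by choice. A link between CpG content and H3K27ac at the members was not tested.

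Of 3 short motifs searched on both strands, TATAAA was found in 5 of the 9 member promoters (Il17a, Il2, Il22, Ifng and Il13) and in 12.1% of all promoters. TGANTCA was found at Il17a alone (7.03% of all promoters). GGAAAA was found at Il2, Il21, Il13 and one of the Il4 promoters (22.3%). The promoters of Ifng and Il5 are shown because each had a Rad21 peak in a single replicate within 2000 bp. They are the 250 bases before the start on the plus strand of GRCm38.p6, with CpG in capitals. The Rad21 peaks themselves lie outside these bases.
Ifng promoter, chr10:118440796-118441045: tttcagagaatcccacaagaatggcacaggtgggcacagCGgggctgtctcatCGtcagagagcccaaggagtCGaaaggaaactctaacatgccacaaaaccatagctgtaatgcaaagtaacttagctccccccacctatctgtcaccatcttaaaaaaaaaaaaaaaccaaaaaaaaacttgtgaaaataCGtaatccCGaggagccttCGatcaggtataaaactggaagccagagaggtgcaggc
Il5 promoter, chr11:53720544-53720793: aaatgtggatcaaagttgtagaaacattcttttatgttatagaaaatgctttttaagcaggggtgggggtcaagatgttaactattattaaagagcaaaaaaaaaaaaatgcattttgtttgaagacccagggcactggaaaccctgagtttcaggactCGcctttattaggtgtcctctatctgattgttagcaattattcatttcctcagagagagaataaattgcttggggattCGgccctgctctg
The printed Ifng stretch holds 6 CpG and the Il5 stretch 2.

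**Figure D1:**
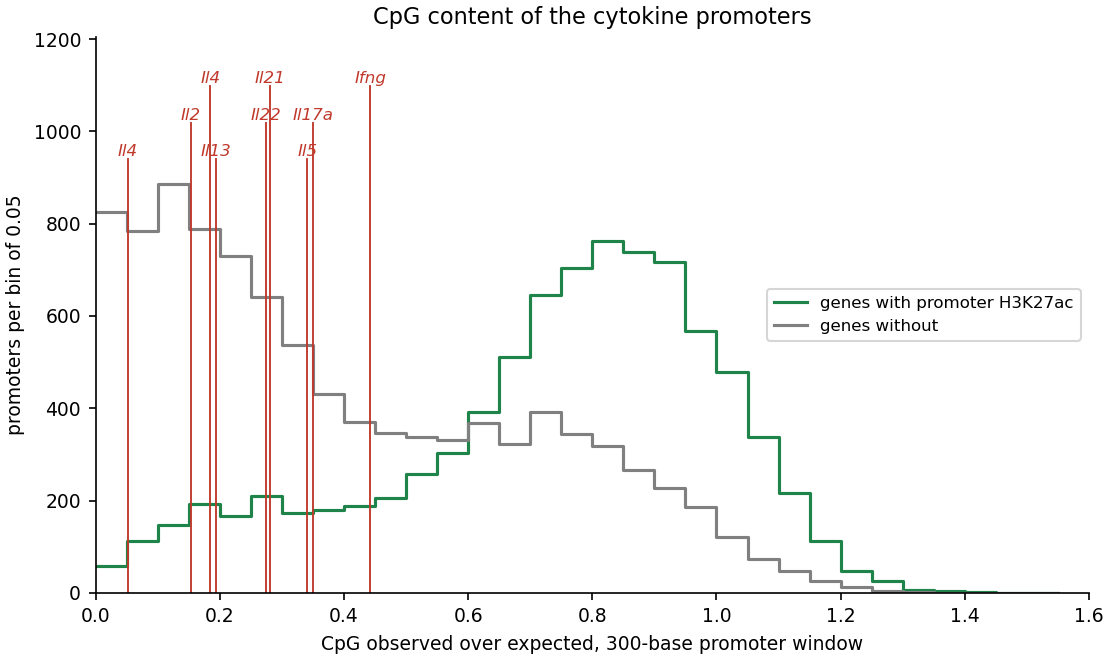
Observed over expected CpG in 300-base promoter windows (horizontal axis) against the number of promoters per bin (vertical axis), for genes with and without an H3K27ac region of both replicates at the promoter. Red lines mark the 9 promoters of the 8 matched members, which lie between 0.0520 and 0.443 and below the median of 0.592 over all promoters.

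The marked sites lay at a distance, and their density differed between the loci. CTCF peaks per 100 kb of window were highest at Il5 (5.87) and Rad50 (5.82), at the 90.7 and 90.4 percentiles of all genes, and next at Il10 (4.39, 78.7 percentile). Il21, Il4 and Il13 followed with 3.34, 3.25 and 2.95. Il2 had 1.95 and Ifng 1.46. Il17a and Il22 had 1 CTCF peak each in their windows, or 0.491 and 0.488 per 100 kb, at the 16.8 and 16.5 percentiles. Both of these peaks had a q value above 0.05. With 1 CTCF library no spread can be given for this order, and windows of neighbouring members share peaks.

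Shared Rad21 regions followed another order. Il5 had 4.89 per 100 kb, Il10 4.39 and Rad50 3.88, at the 82.6, 78.9 and 74.6 percentiles of all genes. Il22 had 1.95 and Il21 1.43, while Ifng, Il13, Il2 and Il4 had 1 region each in their windows. Il17a had none, as had 18.9% of all genes. The members' median was 0.961 regions per 100 kb and that of all genes 1.98. For CTCF the medians were 3.10 and 2.41. For shared H3K27ac regions they were 0.489 and 0.998, and Il2 and Ifng had no such region in their windows, as had 24.3% of all genes.

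**Figure D2:**
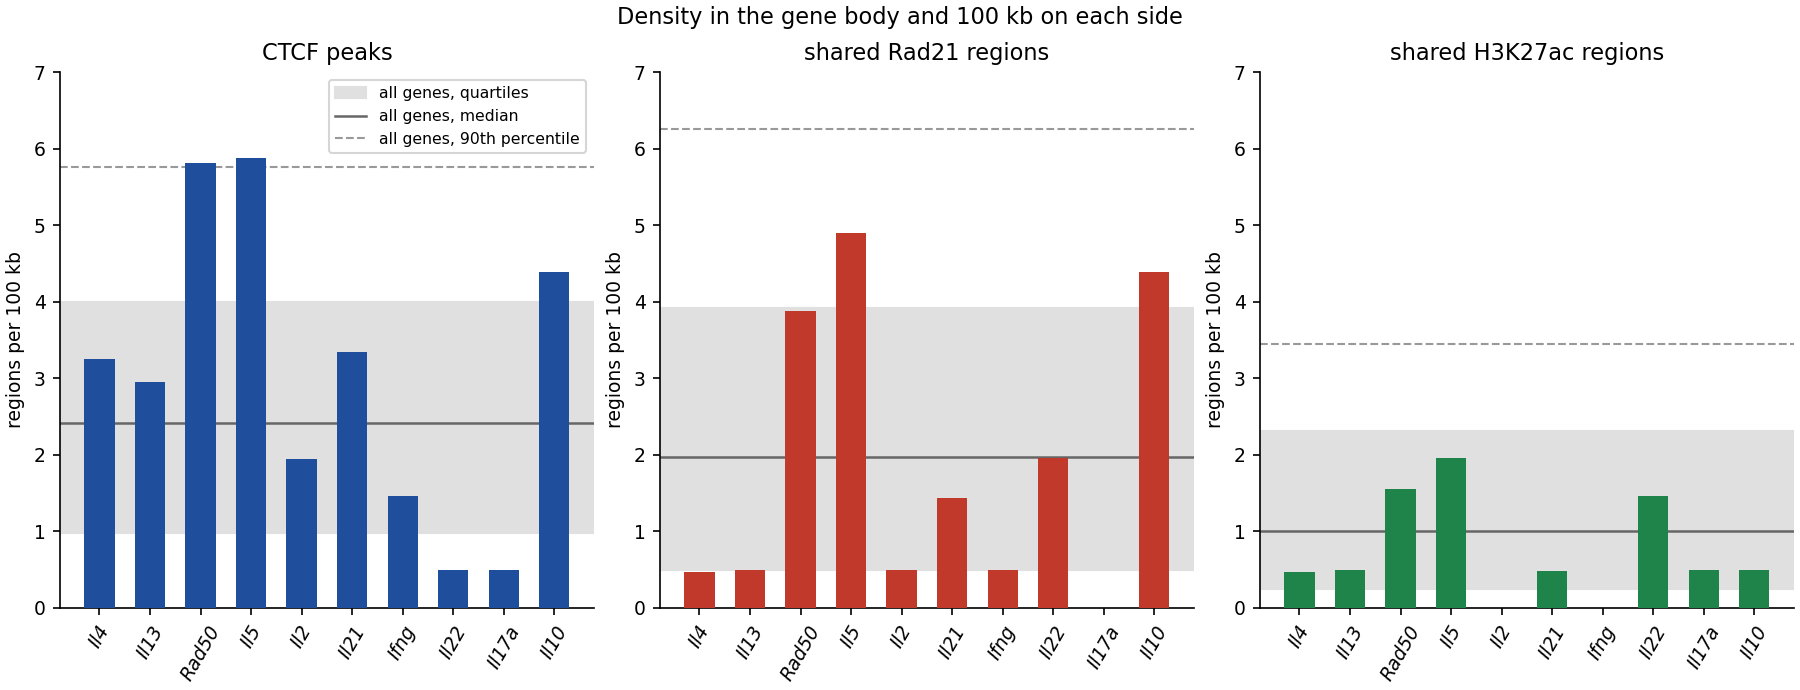
CTCF peaks, shared Rad21 regions and shared H3K27ac regions per 100 kb in each member's gene body and 100 kb on each side (bars), beside the median, quartiles and 90th percentile of 22351 protein-coding genes. Il5, Rad50 and Il10 are highest for CTCF and Rad21, and Il17a has no bar for Rad21.

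Distances from the start sites were long. The nearest shared H3K27ac region was a median of 77.6 kb from a member's start, against 13.7 kb over all genes. It was at the start of Rad50, 13.0 kb from Il5 and 298 kb from Ifng, with the other members between 62.2 and 186 kb. The nearest shared Rad21 region was 6.51 kb from Il13, 9.28 kb from Il4 and 14.8 kb from Il5, and 160 kb from Il17a. The nearest CTCF peak ranged from 2.08 kb at Il13 to 94.6 kb at Il22. The peaks at both ends of this range had q values above 0.05. For Rad21 and CTCF the members' medians were 30.9 and 28.8 kb, and those of all genes 11.0 and 10.1 kb.

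The 6 stretches together held 37 peaks of CTCF. For Rad21 they held 34 in replicate 1 and 46 in replicate 2, and for H3K27ac 31 and 11. Of the Rad21 peaks, 29 of 34 in replicate 1 (85.3%, genome 83.0%) and 28 of 46 in replicate 2 (60.9%, genome 65.1%) had a partner in the other replicate. For H3K27ac it was 10 of 31 (32.3%, genome 42.0%) and 9 of 11 (81.8%, genome 74.8%). These shares are near those of the whole lists. Unmatched Rad21 peaks were lower than matched ones, with median folds of 5.40 against 10.7 in replicate 1 and 6.13 against 13.1 in replicate 2. For H3K27ac the unmatched peaks were the higher ones, at 3.51 against 2.44 in replicate 1 and 6.68 against 2.58 in replicate 2. The last comparison rests on 2 unmatched peaks. There were 27 shared Rad21 and 10 shared H3K27ac regions, and 6 of the 10 also held shared Rad21 (49.3% over the genome). For the H3K27ac region at the edge of the Il22 stretch, that Rad21 region lay outside the stretch and is not among the 27. Of the 10 H3K27ac regions 6 had a q value above 0.05 in at least 1 replicate (51.3% over the genome) and 1, at Mapkapk2, in both (10.5%). Of the CTCF peaks with shared Rad21, 3 of 23 lay in shared H3K27ac (18.5%), all 3 at or before Irf1 and in Gm12216.

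Cohesin at these loci lay mostly on CTCF. Of the 27 shared Rad21 regions, 23 overlapped a CTCF peak (85.2%, exact binomial 95% interval 66.3 to 95.8), where 65.9% of all shared Rad21 regions did. The interval covers counting error only, and sites of one locus are not independent. The share depended on the thresholds. With a −log10 q of at least 1.3 in the CTCF list it was 20 of 27 (74.1%, genome 59.7%), and with at least 5 there it was 15 of 27 (55.6%, genome 48.2%). With at least 5 in the CTCF and Rad21 lists it was 13 of 23 (56.5%), beside 58.1% over the genome, so the higher share at the cytokine loci was not kept there. Without the stretch of Il4, Il13, Rad50 and Il5 it was 13 of 17 (76.5%).

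Seen from CTCF, 23 of 37 peaks carried shared Rad21 (62.2%, interval 44.8 to 77.5), where 58.2% of the whole list did. This order turned with a −log10 q of at least 1.3 in the CTCF list, with 20 of 31 (64.5%) beside 74.1% over the genome. Peaks at or above the list's median fold of 5.78 had Rad21 in 14 of 17 cases (83.3% over the genome), and lower ones in 9 of 20 (33.1%). The CTCF peaks with Rad21 had a median fold of 7.03 and those without one of 4.20. At CTCF peaks with shared Rad21, the correlation (rho) of CTCF with Rad21 folds was 0.30 for Rad21 replicate 1 and −0.01 for replicate 2. Over the genome it was 0.48 and 0.35, so the 2 heights were loosely related there too. A q value above 0.05 was given to 6 of the 37 CTCF peaks (16.2%, beside 29.1% over the genome). Of these 6, 3 held a shared Rad21 region (19.6% over the genome). They lay downstream of Il5, in Gm12216 downstream of Irf1, and upstream of Il22.

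**Figure D3:**
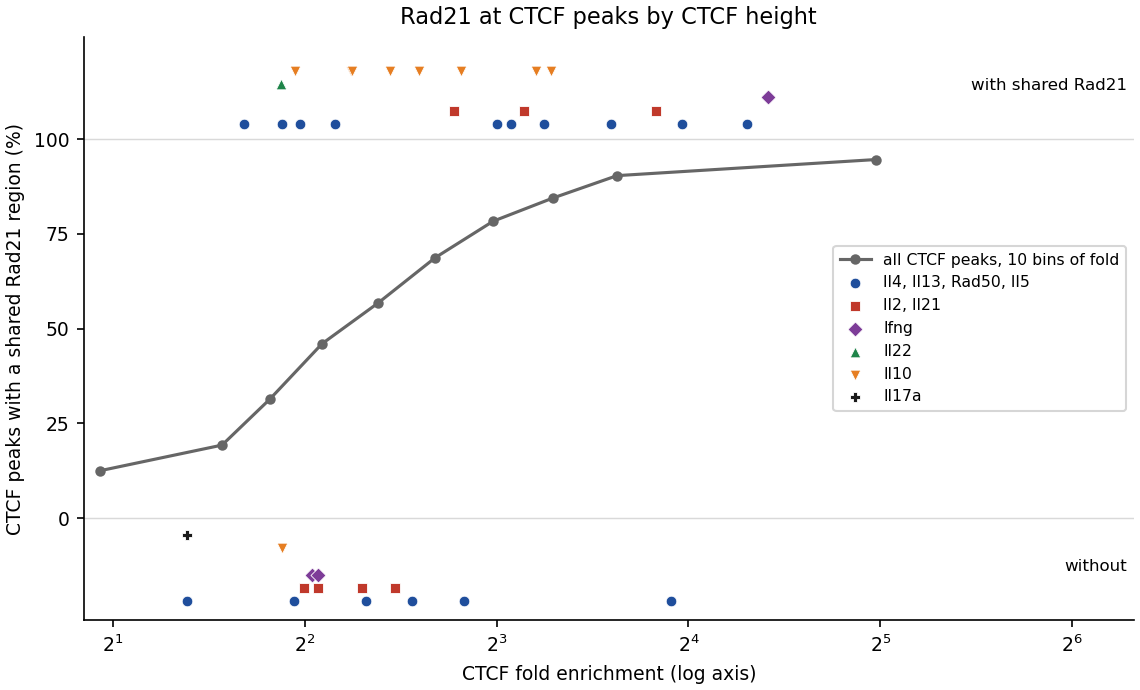
CTCF fold enrichment (log axis) of the 37 CTCF peaks of the stretches, placed above the 100% line where they held a shared Rad21 region (23 peaks) and below the 0% line where they did not (14 peaks), with height within each band used only to separate the loci. The grey line gives the percentage with Rad21 in 10 bins of fold over all 35345 CTCF peaks, which rises from 12.5% to 94.6%.

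A CTCF core match lay near the summit of 31 of the 37 CTCF peaks (83.8%, interval 68.0 to 93.8), against 72.4% of the list. It was present at 21 of 23 peaks with Rad21 (85.4% over the genome) and at 10 of 14 without (54.1%). With at most 1 mismatch the share was 45.9%, below the 51.8% of the list. Among 16 neighbouring pairs of CTCF peaks with both a motif and Rad21 in a stretch, 3 pointed towards each other (25.6% over the genome), 3 away (25.5%) and 10 the same way (48.9%). At Il2 and Il21 all 3 such motifs were on the minus strand, and at Il10 the strands were 3 plus and 5 minus.

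The stretch of Il4, Il13, Rad50 and Il5 (chromosome 11, 53316484 to 53638608, 322 kb) is the T helper 2 locus, named for the cells that secrete interleukins 4, 13 and 5. It held 16 CTCF peaks, 15 and 17 Rad21 peaks, and 10 of the 27 shared Rad21 regions. All 10 lay on a CTCF peak. They were unevenly placed: the 122 kb from Il4 to Il5, gene bodies included, held 1 of them, and the 44.9 kb between Il5 and Irf1 held 8, or 17.8 per 100 kb. The last of these 8 reached into Irf1, a transcription factor gene with H3K27ac at its promoter, and the remaining region lay in Gm12216, past Irf1.

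The region between Il4 and Il13 lay 6.62 kb from the Il13 start, where CTCF reached a fold of 12.1 and Rad21 10.7 in replicate 1 and 5.27 in replicate 2. Its Rad21 fold stood at the 65.6 percentile of the first list and the 23.3 percentile of the second, so the replicates place it differently. A CTCF peak of fold 5.90 between Il13 and Rad50 had Rad21 in replicate 1 alone (5.99). The third highest CTCF fold of the T helper 2 stretch, 15.0 in an intron of Kif3a, which encodes a kinesin motor subunit, was the highest of all 14 CTCF peaks without shared Rad21. It lay 26.8 kb downstream of the Il4 start and had Rad21 in replicate 2 alone, at 7.52. Over the list 94.6% of CTCF peaks in its bin of fold held a shared region.

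Past Il5, 3 CTCF peaks stood 15.0 to 17.0 kb downstream of its start. The first had a CTCF fold of 15.6 with Rad21 folds of 26.2 and 17.2. The middle one had 9.49 with 9.18 and 12.7. The last had the highest CTCF fold of the stretch, 19.8, with 14.5 and 20.5. Their motifs pointed along the plus, minus and plus strand. The first and the last also had an H3K27ac peak in replicate 1 alone, of folds 3.96 and 4.18.

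Further towards Irf1 the order of the CTCF folds and that of the Rad21 folds differed. At 24.7 kb from the Il5 start a CTCF peak of fold 3.21 with a q value above 0.05 held Rad21 at 12.5 and 15.8. At 37.4 kb a CTCF peak of 8.00 held 5.40 and 7.61, and at 38.1 kb one of 3.68 held 7.99 and 10.8. The peak at 43.2 kb, with a CTCF fold of 8.43 and no core match, had the second highest Rad21 folds of the stretch in replicate 1 and the highest in replicate 2 (19.0 and 23.6). It lay in a shared H3K27ac region of folds 2.47 and 2.58 that belonged to no promoter.

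H3K27ac in the T helper 2 stretch was placed at Rad50 and before, at and past Irf1. The 4 shared regions were the Rad50 promoter, the region before Irf1, the promoter of Irf1 and Gm17334 (folds 5.13 and 2.24), and that of Gm12216 and Gm11006 (2.41 and 2.22). Introns of Rad50, where control elements of the T helper 2 cytokines are known to lie in mature cells, held 3 H3K27ac peaks of replicate 1 and none of replicate 2. Their folds were 3.54, 2.36 and 1.35. The peak of fold 1.35 had a q value above 0.05 and stood at the 2.87 percentile of its list. In the other direction an intron of Sept8, a septin gene, held a peak of fold 10.7 in replicate 2 alone. The 100 kb from the stretch start to Il4 held no shared region of either mark.

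**Figure D4:**
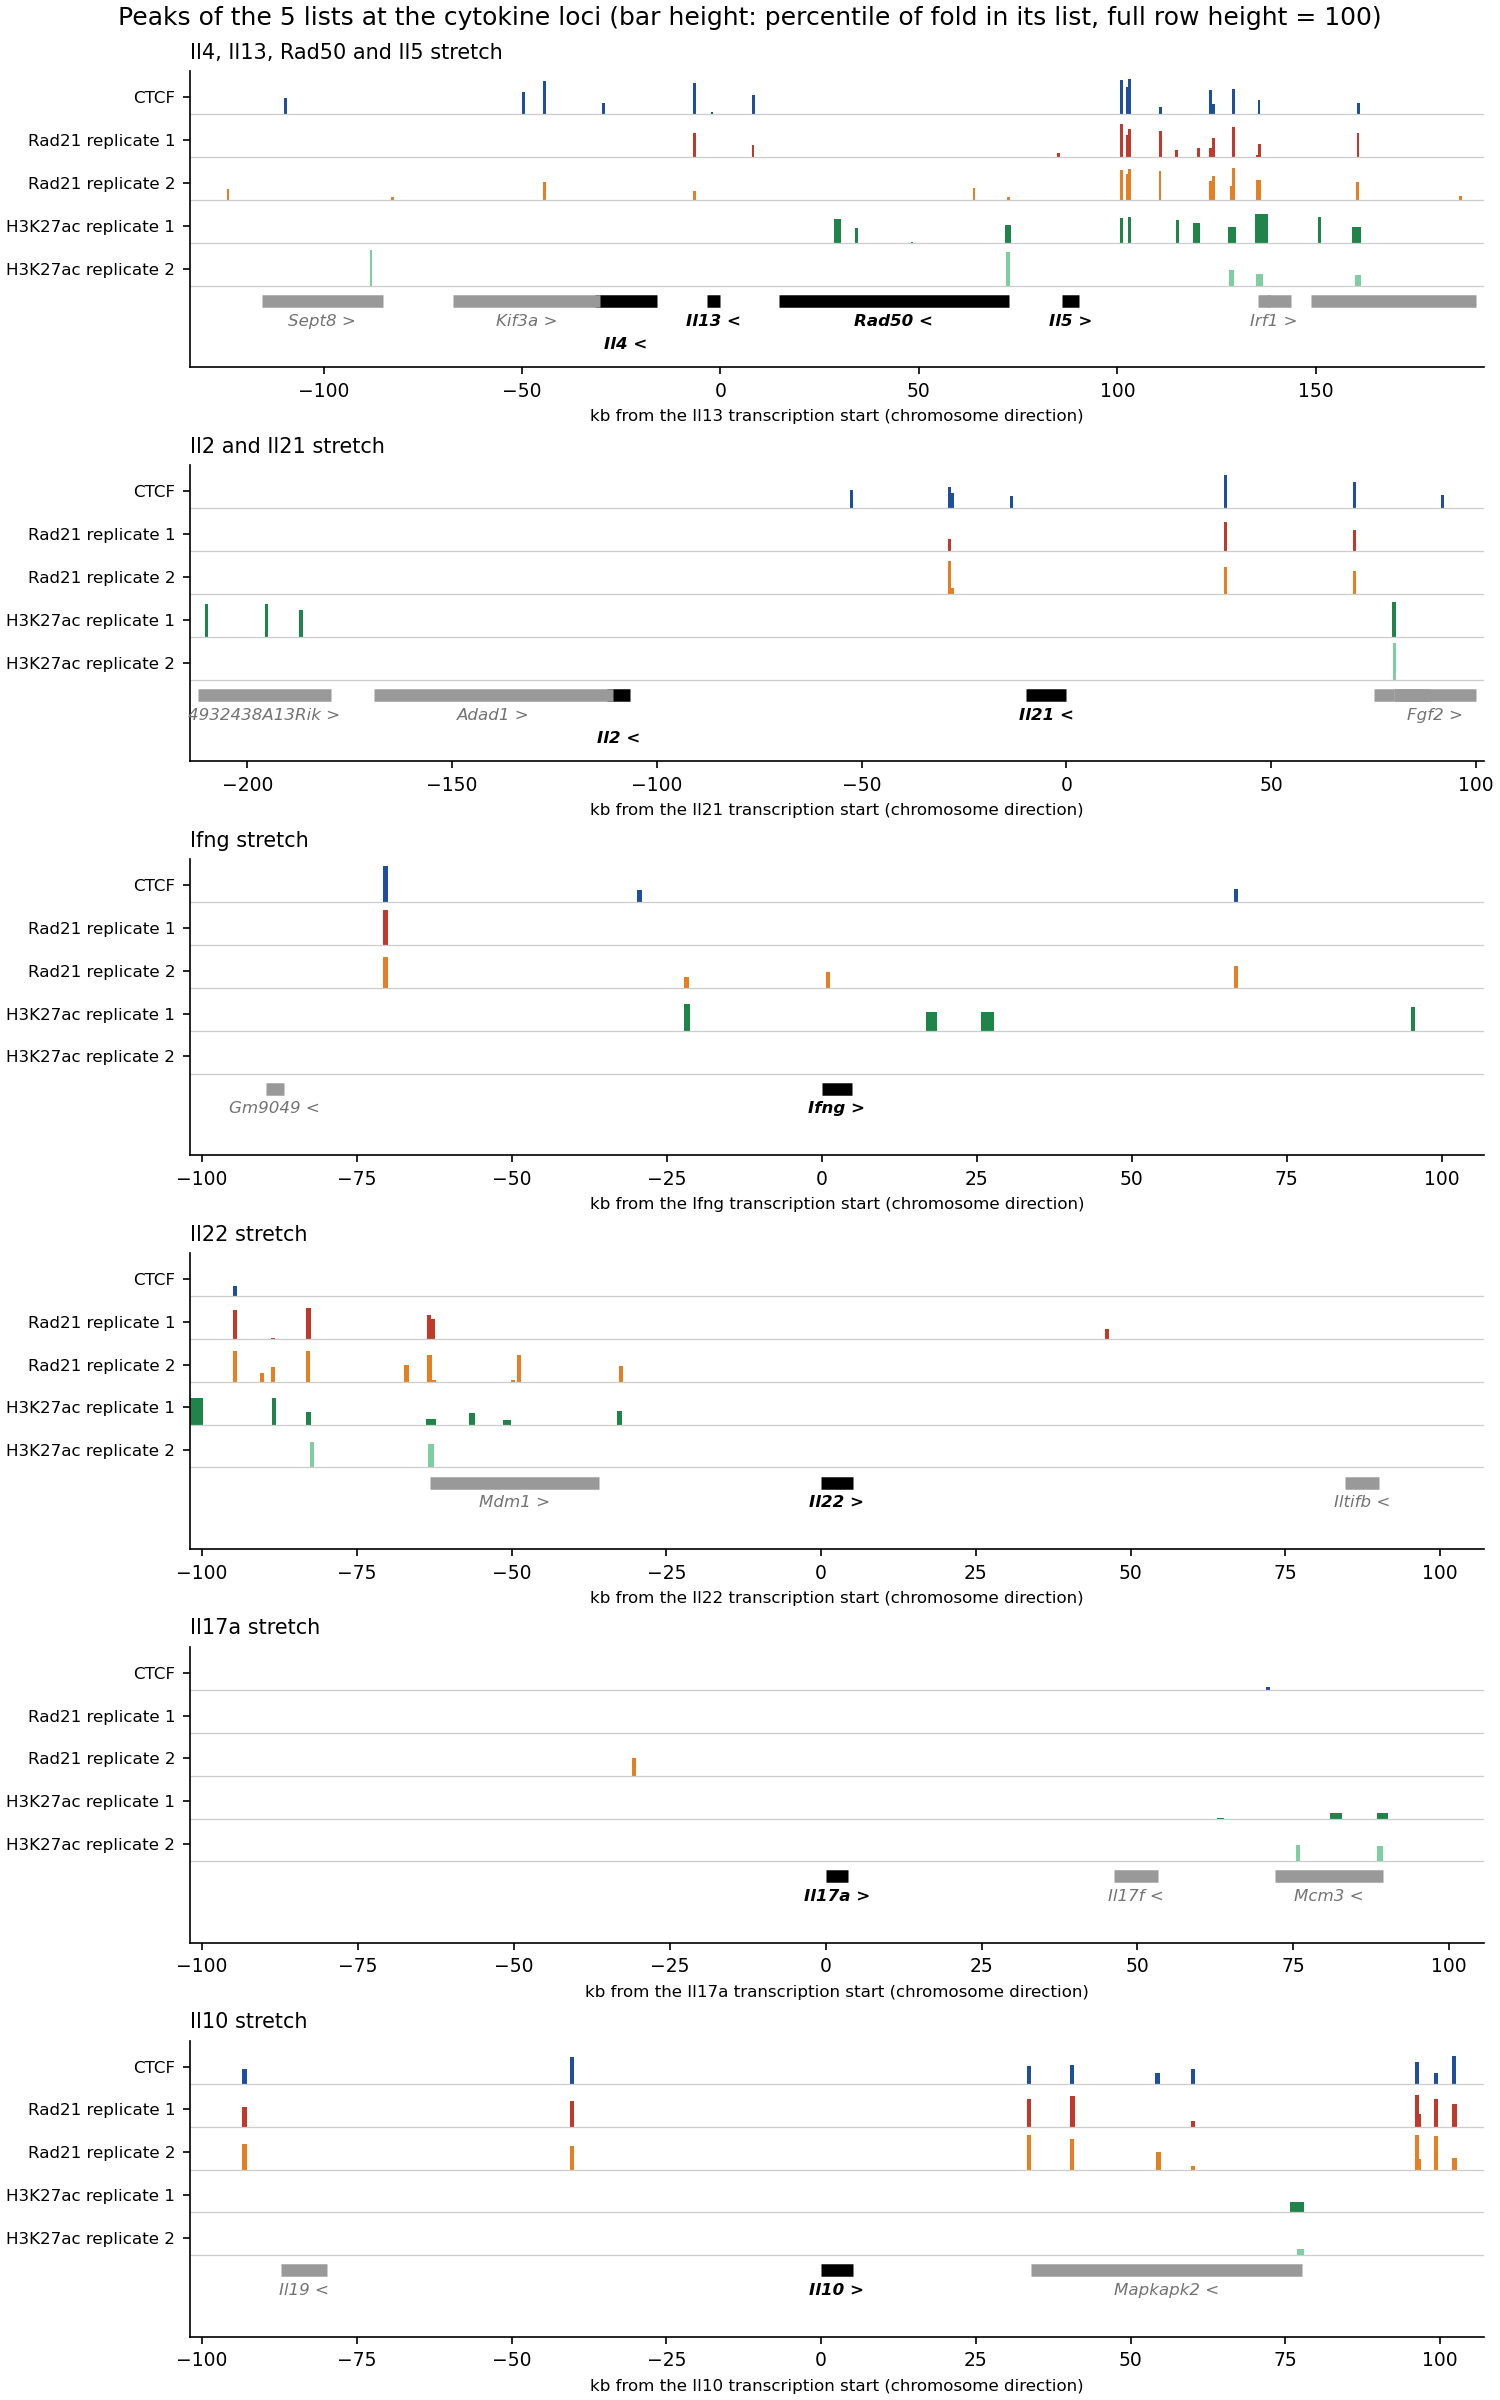
Positions of all peaks in the 6 stretches as distance from a member's TSS (horizontal axis, kb along the chromosome), 1 row per list, with bar height as the percentile of the fold within its list and narrow peaks widened to 0.7 kb. Members are black, other protein-coding genes grey (names of closely packed genes are left out), and arrowheads give the strand. The 44.9 kb between Il5 and Irf1 are crowded, and the rows around Ifng, Il22 and Il17a are nearly empty at the genes.

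Il2 and Il21 encode growth and helper cytokines of activated T cells and share a stretch on chromosome 3 (36919445 to 37231540, 312 kb). It held 7 CTCF peaks, 3 and 4 Rad21 peaks, and 3 shared Rad21 regions, all on CTCF peaks with minus-strand motifs. All 7 CTCF peaks lay on the Il21 side of Il2, and none on its other side within 100 kb, where the testis gene Adad1 lies. The region between both genes, 28.5 kb downstream of the Il21 start, had CTCF at 6.85 and Rad21 at 5.80 and 27.7. This is a difference of 2.26 on the log2 scale, and 99.9% of all shared Rad21 regions differed by less. The other two, 38.8 and 70.3 kb upstream of Il21, had CTCF folds of 14.2 and 8.84. Their Rad21 folds were close between replicates, at 15.6 and 13.6 for the nearer and 9.06 and 9.88 for the farther one.

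The remaining 4 CTCF peaks of this stretch had folds of 3.98 to 5.55, none with shared Rad21. One shared H3K27ac region lay there, at the promoters of Cetn4, Bbs12 and Fgf2, with folds of 10.0 and 20.5. Its fold in replicate 2 was at the 99.8 percentile of the list. In replicate 1 alone, 3 peaks of folds 4.39 to 7.56 lay in 4932438A13Rik, at least 80.3 kb from the Il2 start.

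Ifng encodes interferon gamma, the leading cytokine of T helper 1 cells. Its stretch (chromosome 10, 117778103 to 117982948, 205 kb) held the strongest CTCF peak of all 6. That site, 70.4 kb upstream of the start and first among the sequences above, had CTCF at 21.4 (98.1 percentile of folds) and Rad21 at 40.2 and 20.9. The Rad21 fold in replicate 1 was the highest of the 27 shared regions and in replicate 2 it ranked below 5 regions of other loci. It was the one shared Rad21 region of the Ifng window. A CTCF peak 29.5 kb upstream (fold 4.11) had no Rad21, and one 66.8 kb downstream (4.20) had Rad21 in replicate 2 alone (8.93).

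No shared H3K27ac region lay in the Ifng stretch. Replicate 1 had 4 peaks, at 21.8 kb upstream (fold 4.37) and at 17.7, 26.7 and 95.4 kb downstream (2.72, 2.73 and 3.63), and replicate 2 had 0. The upstream one coincided with a Rad21 peak of replicate 2 of fold 5.73. The mark around Ifng thus rests on 1 library.

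Il22 encodes interleukin 22, a cytokine of T helper 17 and innate lymphoid cells that acts on epithelia. It lies on the same chromosome, with 231 kb between it and Ifng. A gene annotated as Iltifb, a near-identical copy of Il22, lies in its stretch (117541998 to 117747098), and short reads from both copies may not be told apart. Neither had any promoter region. All 4 shared Rad21 regions and all 3 shared H3K27ac regions lay upstream of Il22, 62.2 kb away or farther, at and beyond the Mdm1 promoter.

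A CTCF peak lay on 1 of the 4 shared Rad21 regions of the Il22 stretch and on 22 of the 23 regions of the other stretches, where 65.9% of all such regions had one. With a −log10 q of at least 5 in the CTCF list it was 0 of 4 and 15 of 23. Of the 3 regions without any CTCF peak, one lay 82.8 kb upstream, with Rad21 folds of 19.2 and 20.7 in H3K27ac of folds 2.18 and 4.10. Another was at the Mdm1 promoter, with 10.7 and 13.5 in H3K27ac of 1.76 and 3.55. The third, 88.5 kb upstream, had 3.37 and 6.44 and no shared H3K27ac. Of the 4 CTCF-free regions of all stretches 2 lay in H3K27ac, where 72% of such regions of the genome did. The difference between the stretches was seen in the data and not tested.

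The fourth Rad21 region of the Il22 stretch lay 94.7 kb upstream on the one CTCF peak there. Its CTCF fold was 3.67, with a q value above 0.05, and its motif had 0 mismatches. Rad21 was high in both replicates, at 16.7 and 20.2, the 80.3 and 84.5 percentiles of the lists. An intron of Mdm1 held a Rad21 peak of replicate 2 of fold 13.0, also with a motif of 0 mismatches and without a CTCF peak. It was the highest unmatched Rad21 peak of the 6 stretches. One of the 3 H3K27ac regions reached into the stretch by its end only, and with regions placed by midpoint 9 of the 10 regions of all stretches were counted.

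Il17a encodes the leading cytokine of T helper 17 cells. Its stretch (chromosome 1, 20620986 to 20824577, 204 kb) was the emptiest for cohesin. It held 1 CTCF peak, 71.0 kb downstream, of fold 2.61 with a q value above 0.05, and 1 Rad21 peak, in replicate 2 alone, 30.7 kb upstream, of fold 7.16, with a motif of 1 mismatch. The interval to Il17f, its paralog, held no peak of any list, and the Il17f promoter had none. The shared H3K27ac region of the stretch was at the promoter of Mcm3, a subunit of the replicative helicase, with folds of 1.72 and 2.58.

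Il10 encodes an anti-inflammatory cytokine. Its stretch (chromosome 1, 132816422 to 133021551, 205 kb) held 9 CTCF peaks, of which 8 had shared Rad21, and 9 shared Rad21 regions. The Il10 body held none, and the nearest sites lay 33.6 kb downstream and 40.2 kb upstream of the start. In 5 of the 9 regions the replicate 2 fold was the higher one. The share over all shared regions was not counted, and their median log2 ratio of replicate 2 to replicate 1 was 0.23. The CTCF peaks with Rad21 at Il10 had CTCF folds of 3.86 to 9.75.

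The 2 strongest CTCF peaks at Il10 were not its strongest Rad21 sites. The one 102 kb downstream had CTCF at 9.75 and Rad21 at 10.0 and 5.85, and the one 40.2 kb upstream 9.22 with 12.3 and 10.0. In contrast, at 96.3 kb downstream a CTCF fold of 7.03 came with Rad21 at 21.7 and 39.8. At 33.6 kb downstream, just past the end of Mapkapk2, which encodes a stress-activated kinase, 5.44 came with 13.9 and 34.4. At 40.6 kb, in an intron of Mapkapk2, 6.05 came with 19.6 and 20.5. Such differences in order are not particular to Il10, since over the genome both folds were only loosely related (rho 0.48 and 0.35).

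The other Il10 sites were lower in CTCF. The peak 99.3 kb downstream had a CTCF fold of 3.86 and Rad21 at 14.7 and 28.2. The peak 60.1 kb downstream had 4.74 with 4.64 and 4.14, and the peak 93.2 kb upstream 4.73 with 8.37 and 11.9. The 1 CTCF-free region, 96.6 kb downstream, had 6.12 and 5.65 and lay next to the site at 96.3 kb. The one H3K27ac region was at the Mapkapk2 promoter, with folds of 1.97 and 1.92 and q values above 0.05 in both replicates, and Il19, a cytokine gene of the same family, had none.

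**Figure D5:**
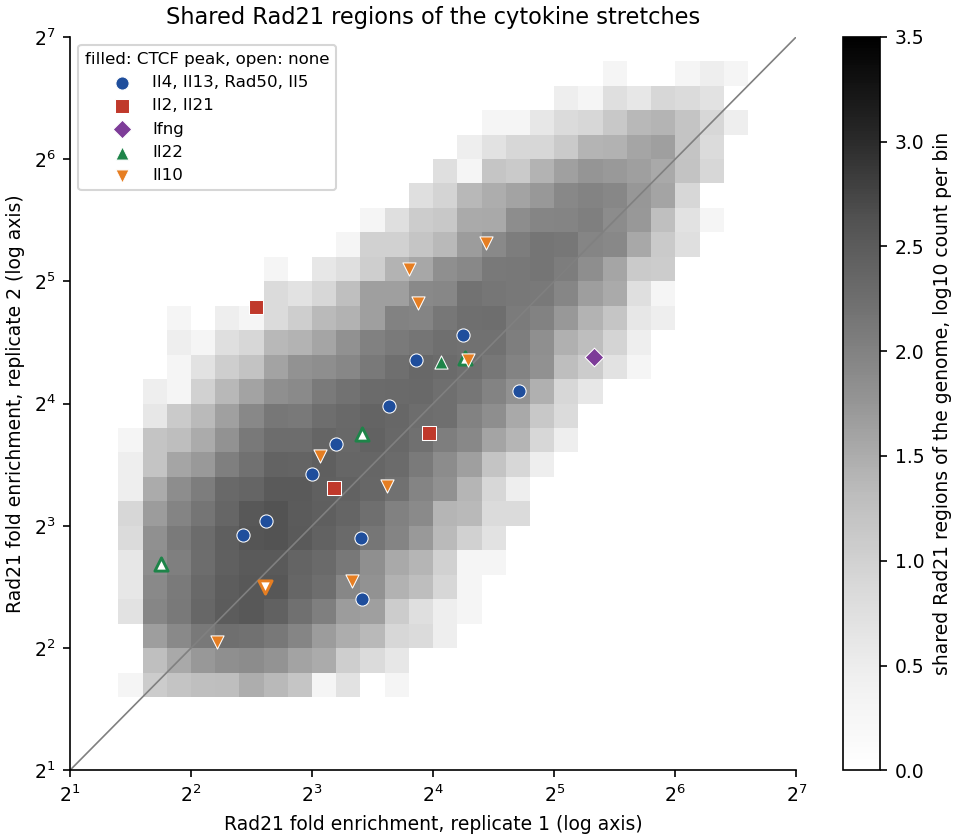
Rad21 fold enrichment in replicate 1 (horizontal, log axis) and replicate 2 (vertical, log axis) of the 27 shared regions of the stretches, filled where a CTCF peak overlapped and open where not, over the density of all 30959 shared regions in grey. The region between Il2 and Il21 (5.80 and 27.7) lies far above the diagonal, the Ifng site (40.2 and 20.9) below it, and 3 of the 4 open symbols belong to Il22.

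Over all 27 shared regions the median Rad21 fold was 10.7 in replicate 1 and 13.5 in replicate 2, beside 9.12 and 11.1 over the genome. The log2 ratio of replicate 2 to replicate 1 had a median of 0.32 in the stretches and of 0.23 over the genome. The size of the difference between replicates had a median of 0.47 on the log2 scale in the stretches and of 0.43 over the genome. The largest difference in the stretches was the 2.26 between Il2 and Il21. For CTCF, with 1 library, no such spread can be given.

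Promoters of other genes around the members were also read. Of 18 other protein-coding genes with a start in the stretches, 11 had promoter H3K27ac (41.5% of all genes), 4 promoter Rad21 (31.5%) and 2 promoter CTCF (26.4%). They were Irf1, Gm17334, Gm12216, Gm11006, 4932438A13Rik, Cetn4, Bbs12, Fgf2, Mdm1, Mcm3 and Mapkapk2 for H3K27ac. Sept8, Kif3a, Adad1, Gm9049, Iltifb, Il17f and Il19 had none. Several of these genes share a region, and that of 4932438A13Rik lay at a start outside the stretch.

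The wider pathway was given by lists of other cytokines, of the receptors and of the factors that act on these loci in mature T cells. Of 14 other T cell cytokines 5 had promoter H3K27ac (Tnf, Lta, Ltb, Tgfb1 and Il16), 6 promoter Rad21 and 3 promoter CTCF, and Il3, Csf2, Il9, Il24, Il20 and Il27 had none. Over all genes these shares were 41.5%, 31.5% and 26.4%. Of 15 receptor genes 8 had H3K27ac, 8 Rad21 and 6 CTCF. The receptor chains with H3K27ac were Il2rg, the chain common to several of these receptors, Il4ra, Ifngr1, Ifngr2, Il21r, Il17ra, Il10ra and Il10rb. Il2rb, Il5ra and Il22ra1 had no region of the 3 kinds, and Il2ra had an H3K27ac peak in replicate 1 alone. Of 16 factors 11 had H3K27ac, 10 Rad21 and 10 CTCF. Gata3, Stat6, Batf and Runx1 were among those with H3K27ac, and Tbx21 and Irf4 had none of the 3.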

How the data were processed

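ChIP-seq peak lists of wild type CD69-negative double-positive thymocytes were used, 1 for CTCF and 2 each for Rad21 and H3K27ac, with groups and replicate numbers from the labels. The 8 Hi-C and 2 input samples were not analysed here. The submitters' processing notes name mm9, CASAVA 1.82 and 1.84, Bowtie2 2.3.2, HiC-Pro 2.7.8, Juicer 0.7.5, Bowtie 1.0.0 and MACS2 2.1.0 with no role. How peaks were called, with which control and threshold, is not given in the sources used. Each deposited peak has a fold enrichment, a ratio over local background by the authors' caller, which was used to describe and rank peaks within a list. Rad21 folds were also compared between replicates, and CTCF folds with Rad21 folds. The deposited −log10 p and −log10 q values were written by the authors' caller, and the −log10 q was used in alternatives. The smallest deposited −log10 q was 0 for CTCF, 1.31 and 1.32 for Rad21, and 0.188 and 0.00455 for H3K27ac. The score deposited by the authors was not used, and the narrow lists, of CTCF and Rad21, give the summit as deposited. Peak lists carry no read counts, so depth and its precision are unknown, and intervals cover counting error only.

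Autosomes and X were kept, and several summits of 1 peak were reduced to the highest, which gave 35345 CTCF, 38430 and 48462 Rad21, and 38700 and 24765 H3K27ac peaks. Merged peaks of both replicates with a peak of each were called shared (30959 Rad21 and 16230 H3K27ac regions), and an overlap needed 1 bp. Gene models came from GENCODE vM1 (NCBIM37, shown as mm9), and Ptcra was added to its protein-coding genes. Distances to the nearest region were taken from its edge, and positions of CTCF and Rad21 sites from summits. The analysis ran in Python 3.11.15 with pandas 2.3.3, numpy 2.4.6, scipy 1.17.1 and matplotlib 3.10.9, and overlaps and motif search were tested on simulated data.

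The design has a single condition, so no test between groups was run, and values are given beside those of all genes, peaks or regions. All members were named, with the CTCF peaks holding Rad21 up to the 6 highest per stretch, the CTCF-free Rad21 regions up to 4, and neighbouring genes with promoter H3K27ac. Sequences were the 8 highest CTCF peaks with a motif and the promoters of members with a peak in them. The Il22 site, the Ifng intron site, the remaining Il10 and Irf1-side sites and peaks of 1 replicate were named after their values were seen. The members and lists were chosen with earlier results of these data known. Some genes of the marker and pathway lists enter the counts and are not reported here by name.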

Additional observations from a re-analysis of the deposited data

How the results depend on the processing

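Of 61 values under other settings, 30 stayed within 1.5 times the count or within the error of the percentage and 31 did not. For Rad21 on CTCF and CTCF with Rad21 this error was the standard deviation between the values of each Rad21 replicate alone. It was 8.41 and 5.73 percentage points, narrower than the binomial intervals given above. For the motif share the error was the binomial interval. Several of the 31 follow from the setting itself, since a stricter threshold or a narrower window holds fewer peaks. When every list was limited to −log10 q values of 5 or more, the stretches held 18 CTCF peaks and 1 shared H3K27ac region, 56.5% of shared Rad21 regions lay on CTCF, 72.2% of CTCF peaks held Rad21, 94.4% had a motif, and 0 members had promoter H3K27ac. The same threshold in the CTCF and Rad21 lists alone gave the same 18, 56.5%, 72.2% and 94.4%. The genome gave 58.1%, 78.5% and 90.1% for these 3 shares. A −log10 q of at least 1.3 for CTCF gave 74.1% of Rad21 on CTCF (genome 59.7%). It gave 64.5% of CTCF peaks with Rad21 (genome 74.1%) and 83.9% with a motif (genome 87.0%). With 50 kb on each side there were 24 CTCF peaks, 14 Rad21 and 3 H3K27ac regions, and 100% of the Rad21 regions lay on CTCF. With 200 kb there were 70, 63 and 30, and 73.0%. With at most 1 mismatch 45.9% of CTCF peaks had a motif. Each Rad21 replicate alone gave 34 to 46 regions, 58.7% to 70.6% of them on CTCF (genome 47.2% and 57.5%), 64.9% to 73.0% of CTCF peaks with Rad21, and 1 to 2 members with promoter Rad21. Each H3K27ac replicate alone gave 11 to 31 regions, and 1 member with a promoter region in either. 3 settings were chosen after seeing the data: a −log10 q of at least 5 for CTCF alone, which gave 18 CTCF peaks, 55.6% of Rad21 on CTCF (genome 48.2%) and 83.3% of CTCF with Rad21 (genome 83.8%), placing regions by midpoint, which gave 37, 27 and 9 regions, and leaving out the T helper 2 stretch, which gave 76.5% of Rad21 on CTCF and 61.9% of CTCF with Rad21. No paired analysis was possible because the values come from no test between groups. The H3K27ac counts are the least certain, and the cause of the differences between replicates was not tested.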
